A study of Mus musculus with 15 samples.

Results

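Mouse embryonic fibroblasts (MEFs) with wild-type p53 were compared between the third generation without telomerase (G3DM, 2 libraries) and the fifth (G5DM, 3 libraries). These were 5 of the 15 polyA RNA libraries of the series, chosen by genotype and generation. All 5 had the genotype mTR-/-Wrn-/-p53WT, called DM, so the G3DM controls also lacked mTR (the gene of telomerase RNA) and Wrn (a RecQ helicase that is lost in Werner syndrome). The cells were taken from embryos of day 13.5 and grown in DMEM with 10% serum, 5% CO2 and 3% O2. The other libraries were first-generation DM (G1DM, 2 libraries) and the 3 generations of TM (mTR-/-Wrn-/-p53N236S/N236S), which carry the p53 change N236S on both alleles (G1TM, 2 libraries, and G3TM and G5TM, 3 each). Whether replicates came from separate embryos is not stated. The sex-linked genes below show that G5DM replicate 1 was not a repeat of replicates 2 and 3. For the other libraries compared the spread that the p-values measure may be technical. A MEF culture is a mixture of the connective tissue cells of an embryo, and its make-up depends on the embryo and the dissection. In such bulk RNA, fewer cells of a type and less RNA per cell cannot be told apart.

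Mice without telomerase lose telomere repeats with each generation, and short telomeres activate the p53 pathway, which arrests or removes cells. Loss of Wrn, which helps replicate telomeric DNA, brings these effects forward. Fibroblasts also keep a memory of their place in the body. Hox genes, which lie in 4 clusters and pattern the head-to-tail axis, stay active in culture. Low paralogue numbers mark anterior tissue, and high numbers mark the posterior trunk, the tail and the distal limb.

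G5DM cells had less RNA of posterior Hox genes, of mesothelial and cartilage genes, and of 4 keratin genes than G3DM cells. They had more RNA of a broad set of long transcripts with low GC content, with 9 of 70 genes of the G2/M programme among them. The values were analysed as log2(FPKM + 1), where FPKM is fragments per kilobase of gene length at a fixed library size. Genes entered the test if 2 or more of the 5 libraries reached 1 FPKM, which left 12476, and limma was run in 1 model of all 15 libraries. At a Benjamini-Hochberg adjusted p under 0.05, 756 genes (6.06%) passed. Of these, 507 (4.06%) were higher and 249 (2%) were lower in G5DM. The median log2 difference of all tested genes was -0.10. When libraries were scaled to the same FPKM total, the median became 0.05 and the calls were 31 higher and 54 lower.

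The 3 G5DM libraries were not alike, and this bears on every result. On the first principal component of the 5 libraries (70.4% of the variance), G5DM replicate 1 lay at -25.9, near the G3DM libraries at -39.3 and -28.3. G5DM replicates 2 and 3 lay at 42.6 and 50.8. The second component (18.8%) set replicate 1 apart, at -36.7 against -3.93 to 18.2 in the other 4. Xist, which silences 1 X chromosome in female cells, was expressed in both G3DM libraries and G5DM replicate 1, where Y-linked genes were listed at 0. G5DM replicates 2 and 3 expressed Y-linked genes, at a summed 31.7 and 34.7 FPKM. Sex and generation therefore cannot be told apart in those 2 libraries. Recovered reads ran from 18581227 (G5DM replicate 1) to 25933487 (G5DM replicate 3).

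The number of calls rested on the spread that the other 10 libraries lent to the model, and on single libraries. With the 5 libraries alone 1 gene passed, and with the 7 DM libraries 16 passed. Without G5DM replicate 1, 3203 genes passed, 2055 higher (16.5%) and 1148 lower (9.2%), including all 756. Without G5DM replicate 2 or 3 there were 52 and 129, and without G3DM replicate 1 or 2 there were 13 and 24. Of the libraries outside the comparison, leaving out G1TM replicate 1 or 2, G3TM replicate 3, or G5TM replicate 1 or 3 gave 452, 451, 471, 397 and 416. Each gene list below is described by its counts and median, with no test of the list. A gene below 1 FPKM throughout 1 group could be tested only through the other group, so the filter bears on these counts.

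Fibroblast genes were at high levels in all 5 libraries. The fibroblast collagen gene Col1a1 had 2029 and 1157 FPKM in G3DM and 1180, 1036 and 1133 FPKM in G5DM. The surface marker Thy1 had 291 and 322 FPKM in G3DM and 102, 172 and 134 FPKM in G5DM. The globin genes Hbb-bt and Hba-a1 and the adipocyte gene Adipoq were listed at 0 in all 5 libraries, and the epithelial gene Epcam stayed at 0.109 to 0.307 FPKM. Of the deleted genes, Wrn lay at 0.0802 to 0.599 FPKM, below the filter. Terc, an RNA without polyA that such libraries barely sample, was listed at 0 except for 0.109 FPKM in G5DM replicate 2.

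Posterior Hox genes were among the largest falls. Of 34 tested genes of the Hox list, 6 fell and none rose, and the list's median log2 difference was -1.16 against -0.10 for all genes. Over all genes 2% fell. The 6 were Hoxc10, Hoxa10, Hoxd13, Hoxc9, Hoxa11 and Hoxa13. By position, 5 of 10 genes of paralogue groups 10 to 13 fell, 1 of 12 of groups 6 to 9, and 0 of 11 of groups 1 to 5. The median differences were -1.52, -1.26 and -0.62 in that order.

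Hoxc10 (ENSMUSG00000022484, chromosome 15, 102966796 to 102971893, plus strand), a gene of the posterior trunk and hindlimb, had 10.1 and 12.8 FPKM in G3DM. It had 0.029, 0.847 and 0.0364 FPKM in G5DM, so the groups did not overlap. The log2 difference was -3.31 (SE 0.32, limma adjusted p = 0.000213). It passed in 33 of 34 alternative settings, failing with the 5 libraries alone (limma adjusted p = 0.0792). G1DM had 6.70 and 4.28 FPKM.

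Hoxa10, which patterns the lumbar region and the proximal limb, had 11.2 and 11.8 FPKM in G3DM and 0, 0.664 and 2.63 FPKM in G5DM. The difference was -2.78 (SE 0.43, limma adjusted p = 0.00902), and this p became 0.0977 without G3DM replicate 1 and 0.0874 without G3DM replicate 2. Hoxd13, which shapes the digits, had 9.13 and 9.76 FPKM in G3DM and 0.0223, 0.0744 and 2.35 FPKM in G5DM. Replicate 3 kept part of the signal of both genes. The Hoxd13 difference was -2.76 (SE 0.70, limma adjusted p = 0.0392). It was lost without G5DM replicate 2 (limma adjusted p = 0.147) and without G3DM replicate 1 (0.288) or 2 (0.182). Over the list, 9 Hox genes passed without G5DM replicate 1, 4 and 7 without replicates 2 and 3, and 1 without either G3DM library.

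The 3 G5DM libraries lacked different stretches of the Hox clusters. In G5DM replicate 1, 31 of the 33 tested protein-coding Hox genes were below 1 FPKM and 15 were listed at 0. Only Hoxd8 (1.86 FPKM) and Hoxb9 (4.28 FPKM) were above it. In replicates 2 and 3, no gene of groups 1 to 5 was below 1 FPKM, but 10 and 6 of the 10 genes of groups 10 to 13 were. Both G3DM libraries had all 33 genes at or above 1 FPKM. For any gene below 1 FPKM in all 3 G5DM libraries the filter fixed this in advance.

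Summed levels of these tested genes are another view of the same values. The filter bears on the sums too, since a gene below 1 FPKM in all 3 G5DM libraries was tested only through G3DM. For groups 1 to 5 the sum was 48.4 and 48.8 FPKM in G3DM and 1.89, 39.9 and 59.6 FPKM in G5DM, so replicates 2 and 3 lay around the G3DM level. For groups 10 to 13 it was 47.3 and 50.4 FPKM in G3DM and 0.0513, 2.22 and 9.49 FPKM in G5DM, with G5DM low throughout. G1DM had 41.4 and 33.3 FPKM there. The anterior gene Hoxa5, chosen after its values were seen, shows the split within G5DM. It had 14.8 and 13.4 FPKM in G3DM, was listed at 0 in G5DM replicate 1, and had 10.5 and 17.9 FPKM in replicates 2 and 3. Its difference did not pass (limma adjusted p = 0.378).

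**Figure D1:**
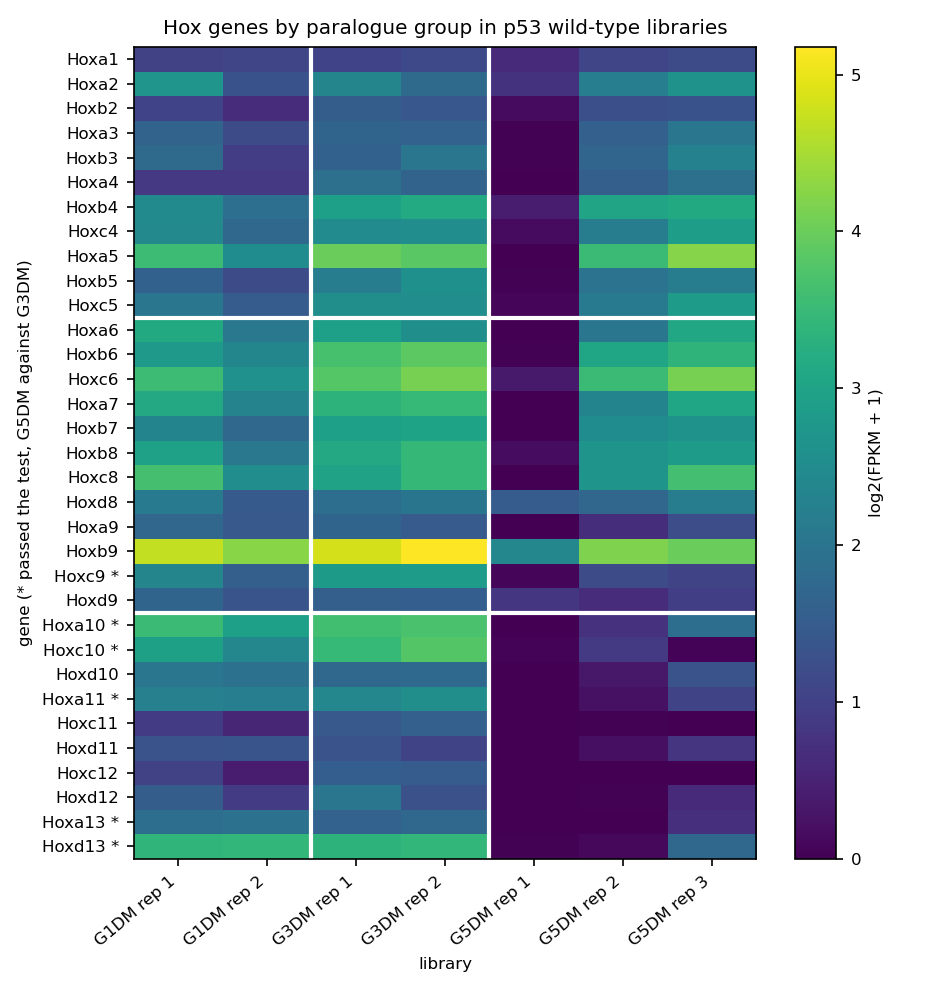
Levels of the 33 tested Hox genes in the 7 DM libraries, as log2(FPKM + 1) by colour, with genes in rows from paralogue group 1 (top) to 13 (bottom) and white lines after groups 5 and 9. The column of G5DM replicate 1 is dark in most genes, with Hoxb9 and Hoxd8 as the brightest, while replicates 2 and 3 are darkest in the lowest block, where G3DM and G1DM keep signal.

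Other position and lineage factors were checked in a list of 73 genes, of which 61 were tested. In it 2 rose (Prrx1 and Eya1) and 7 fell (Tbx4, Gata4, Wt1, Foxc2, Foxl1, Gata6 and Gata2), with a median of -0.16. Over all genes 4.06% rose, 2% fell and the median was -0.10. The share of rises and the median were thus near those of all genes. Tbx4, which specifies the hindlimb, had 4.20 and 4.26 FPKM in G3DM and 0.407, 0.326 and 0.490 FPKM in G5DM. All 3 G5DM libraries were about equally low. The difference was -1.90 (SE 0.24, limma adjusted p = 0.00231), and the adjusted p was 0.0504 without G3DM replicate 1. Gata4, a factor of the heart and the body cavity lining, had 3.93 and 3.74 FPKM in G3DM and 0, 0.473 and 0.800 FPKM in G5DM (-1.80, SE 0.29, limma adjusted p = 0.00998). Without G3DM replicate 1 no gene of the list passed, without G3DM replicate 2 there was 1 fall, and without G5DM replicates 2 and 3 there were 4 and 6 falls and no rise. Without G5DM replicate 1 there were 5 rises and 14 falls.

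Some factors of the list were highest in G5DM replicate 1. These genes were chosen after their values were seen, and none passed the test. Over the 61 tested genes of the list, the median difference of replicate 1 from the G3DM mean was -0.017, so the list as a whole was not raised there. Six2 had 2.19 and 2.17 FPKM in G3DM and 18.6, 5.30 and 3.13 FPKM in G5DM. Alx4 had 2.04 and 1.83 FPKM in G3DM and 13.5, 3.72 and 2.71 FPKM in G5DM. Msx1 had 5.98 and 3.08 FPKM in G3DM and 19.3, 2.24 and 1.27 FPKM in G5DM. Six2, Alx4 and Msx1 are homeobox factors of craniofacial and limb mesenchyme, and replicate 1 is the library with 31 of 33 Hox genes below 1 FPKM. The origin of this library was not tested.

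Mesothelial genes, which mark the lining of the body cavities, were lower in G5DM. Of 11 tested markers, 6 fell, none rose, and 10, Nkain4 being the exception, had all 3 G5DM libraries below both G3DM libraries. Over all genes 18.7% did so, and 2% fell in the test. The median difference was -1.46. Without G3DM replicate 1 or 2 no marker passed, and without G5DM replicate 2 or 3 there were 3 and 5.

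Upk3b (ENSMUSG00000042985, chromosome 5, 136038496 to 136046487, plus strand), a uroplakin of mesothelium, had 36.8 and 34.4 FPKM in G3DM and 0.0628, 6.27 and 2.02 FPKM in G5DM. It was lowest in replicate 1 and well below G3DM in all 3. The difference was -3.68 (SE 0.58, limma adjusted p = 0.00983), and the adjusted p was 0.118 without G3DM replicate 1 and 0.0874 without G3DM replicate 2. Lrrn4, a membrane protein of the same lining, had 11 and 12.7 FPKM in G3DM and 0, 3.34 and 1.27 FPKM in G5DM (-2.58, SE 0.44, limma adjusted p = 0.0116). Its adjusted p was 0.121 and 0.112 without G3DM replicates 1 and 2. Wt1, the transcription factor of mesothelium and kidney, and Aldh1a2, which makes retinoic acid, also fell (-1.46 and -1.73), and Wt1 also belongs to the list of lineage factors above. Msln, the antigen mesothelin, had 52.4 and 28.6 FPKM in G3DM and 12.7, 12.3 and 16.2 FPKM in G5DM without passing (limma adjusted p = 0.071). G1DM was low too, for example 7.22 and 5.20 FPKM for Upk3b.

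Keratins fell too. Among 10 tested epithelial genes 4 fell (Krt8, Krt18, Krt19 and Krt14), against 2% of all genes, none rose, and the median was -0.85. The 4 were keratins, and the epithelial gene Epcam was below the filter in all 5 libraries. Krt19, a keratin of mesothelium as well, is in both lists. Krt8 had 16.8 and 12.6 FPKM in G3DM and 0.424, 0.802 and 0.727 FPKM in G5DM. The 3 G5DM libraries were uniformly low, and G1DM was low too, at 1.13 and 4.17 FPKM. The difference was -3.24 (SE 0.50, limma adjusted p = 0.00902), and Krt8 was the gene that still passed with the 5 libraries alone (limma adjusted p = 0.0468). It did not pass without G3DM replicate 1 (limma adjusted p = 0.12) or 2 (0.0702). Without either G3DM library none of the 10 epithelial genes passed, and without G5DM replicate 2 or 3 there was 1 fall. The podocyte and mesothelial surface protein Podxl fell by 2.50 (SE 0.30, limma adjusted p = 0.00201), from 8.48 and 5.42 FPKM to 0.202, 0.379 and 0.576 FPKM. Its adjusted p was 0.0504 without G3DM replicate 1, and G1DM had 0.878 and 1.35 FPKM.

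Cartilage genes were also lower. Of 8 tested, 4 fell (Comp, Col2a1, Col10a1 and Acan), against 2% of all genes, none rose, and the median was -1.33. Col2a1, the main collagen of cartilage, had 90 and 125 FPKM in G3DM and 27.2, 16.7 and 37.7 FPKM in G5DM. The groups did not overlap, and G1DM lay between them at 64 and 50 FPKM. The difference was -1.99 (SE 0.46, limma adjusted p = 0.031). Col10a1, the collagen of hypertrophic cartilage, had 13.5 and 9.78 FPKM in G3DM and 1.89, 1.55 and 3.33 FPKM in G5DM (-1.98, SE 0.32, limma adjusted p = 0.0102). No cartilage gene passed without either G3DM library, and 1 passed without G5DM replicate 2 or 3.

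Secreted and membrane proteins were among the other large falls. Cck, the precursor of the peptide cholecystokinin, had 96.8 and 276 FPKM in G3DM and 15.3, 15.7 and 15 FPKM in G5DM. The G5DM libraries were nearly equal, and the spread lay in G3DM. The difference was -3.33 (SE 0.42, limma adjusted p = 0.00229), and it passed with any 1 of the 15 libraries left out, but not with the 5 libraries alone (0.135). Penk, the enkephalin precursor, had 18 and 48.2 FPKM in G3DM and 5.76, 4.18 and 5.12 FPKM in G5DM (-2.35, SE 0.47, limma adjusted p = 0.0233). Angptl7, an angiopoietin-like secreted protein, had the largest named fall. It had 28.2 and 59.8 FPKM in G3DM and 0.334, 0.835 and 6.12 FPKM in G5DM (-4.02, SE 0.85, limma adjusted p = 0.0272). G1DM had 5.42 and 15.3 FPKM for Cck, 23.7 and 12.3 FPKM for Penk, and 2.61 and 13.5 FPKM for Angptl7.

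Gzme, a granzyme protease, had 5.92 and 8.76 FPKM in G3DM and 0.363, 0.958 and 0.682 FPKM in G5DM (-2.32, SE 0.28, limma adjusted p = 0.00201). Des, the muscle intermediate filament desmin, had 159 and 77.2 FPKM in G3DM and 12.5, 19 and 24.7 FPKM in G5DM (-2.55, SE 0.59, limma adjusted p = 0.0304). G1DM lay below both G3DM libraries too, at 0.931 and 1.60 FPKM for Gzme and 15.5 and 29.3 FPKM for Des. Among the 249 falls, which were called with all 3 G5DM libraries, the median difference from the G3DM mean was -1.10, -1.19 and -1.10 in replicates 1, 2 and 3. Of the 15 largest named falls, 8 passed with replicate 1 as the only G5DM library. Leaving out replicate 2 or 3 left 9 and 12 of the 15, and leaving out G3DM replicate 1 or 2 left 4 each. Penk, Angptl7 and Des were among the falls lost without G3DM replicate 1, and likewise without G3DM replicate 2.

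**Figure D2:**
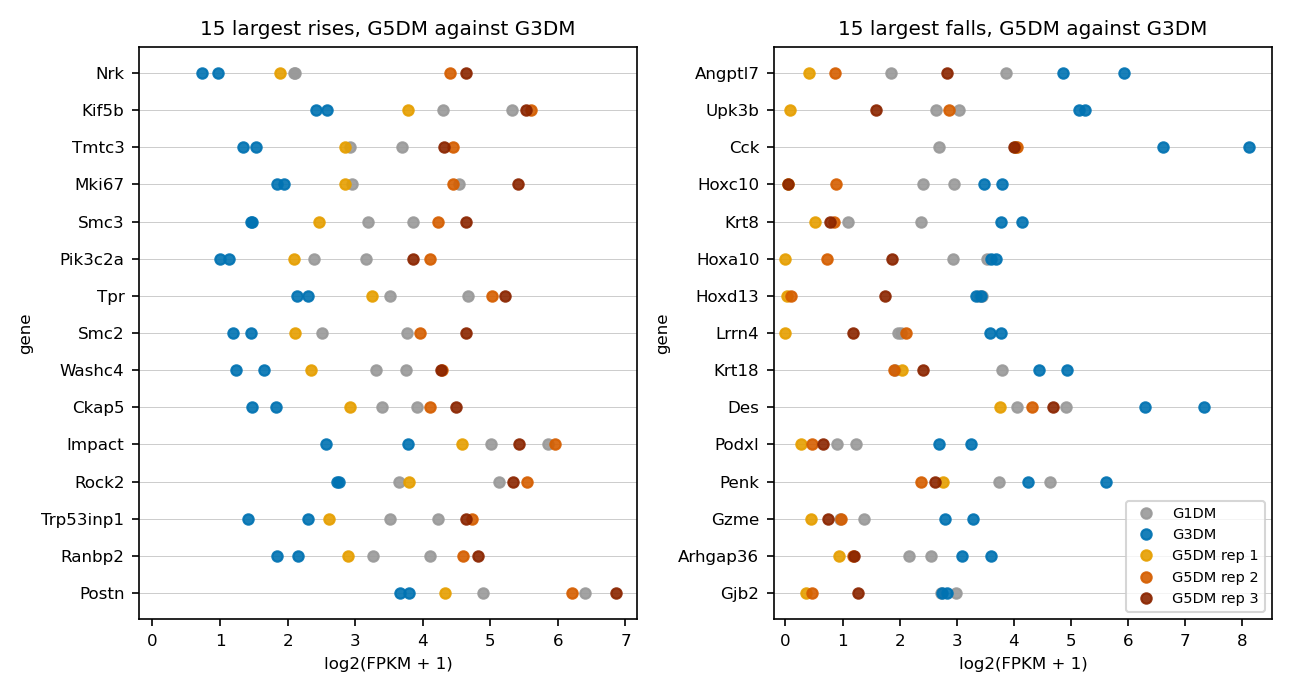
Levels of the 15 genes with the largest rises (left) and falls (right) as log2(FPKM + 1), 1 point per library, in G1DM (grey), G3DM (blue) and the 3 G5DM libraries (orange to brown). In all 15 rises G5DM replicate 1 sits between the G3DM pair and the other 2 G5DM libraries, while in the 15 falls all 3 G5DM libraries lie below both G3DM libraries.

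Signalling genes gave few calls, beside 4.06% higher and 2% lower over all genes. In the list of TGF-beta and BMP genes (36 tested, median -0.32) the receptor Bmpr2 rose by 1.51 on the log2 scale, and the ligands Bmp2 and Bmp7 fell by 1.11 and 1.09. Bmp2 had 4.28 and 6.71 FPKM in G3DM and 1.32, 1.70 and 3.11 FPKM in G5DM. The latent TGF-beta binding proteins Ltbp2 and Ltbp1 fell by 1.53 and 1.16. Wnt2, a ligand of the lung and heart mesenchyme, was the single call among 33 Wnt genes (-1.35, SE 0.23, limma adjusted p = 0.0113). Immediate early genes, which respond within minutes to growth factors and stress, had 4 falls among 23 (Junb, Zfp36, Btg1 and Fosb) and a median of -0.64. Junb had 36.4 and 35.2 FPKM in G3DM and 18.3, 17.7 and 9.72 FPKM in G5DM. None of the genes named from these lists passed without either G3DM library or without G5DM replicate 2, and of them Bmp2, Bmp7, Ltbp1 and Wnt2 passed without replicate 3.

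The rises had another shape. In each of the 15 largest, G5DM replicates 2 and 3 were high, and replicate 1 lay between them and G3DM. The median difference from the G3DM mean over the 507 higher genes was 0.61 in replicate 1, 1.57 in replicate 2 and 1.64 in replicate 3. All 15 of the largest passed without replicate 1, but 1 and 2 passed without replicate 2 or 3, and none passed without either G3DM library or with replicate 1 alone.

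Kif5b, the kinesin motor of axonal and vesicle transport, had 4.37 and 5.01 FPKM in G3DM and 12.8, 47.5 and 45.3 FPKM in G5DM. The difference was 2.47 (SE 0.47, limma adjusted p = 0.0193). Tmtc3, an enzyme that adds mannose to cadherins, had 1.54 and 1.90 FPKM in G3DM and 6.2, 20.9 and 19 FPKM in G5DM (2.43, SE 0.40, limma adjusted p = 0.0102). Nrk, a kinase gene of the X chromosome, had 0.668 and 0.961 FPKM in G3DM and 2.70, 20.1 and 23.8 FPKM in G5DM (2.79, SE 0.57, limma adjusted p = 0.0245). Without G3DM replicate 1 the adjusted p of Tmtc3 and Nrk was 0.143 and 0.244. G1DM had 18.6 and 39.1 FPKM for Kif5b, 6.57 and 11.9 FPKM for Tmtc3, and 3.27 and 3.33 FPKM for Nrk. G3DM was thus the lowest generation for these genes. The nuclear pore genes Tpr and Ranbp2 (2.27 and 2.10) and the lipid kinase gene Pik3c2a (2.29) rose with them.

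Mitotic genes were among the rises, which took in 4.06% of all genes. Of 70 tested genes of the G2/M programme, which the MMB complex activates before division, 9 rose (Mki67, Smc2, Hmmr, Kif11, Bub1, Nusap1, Top2a, Aspm and Ect2), none fell, and the median was 0.24. The complex binds a promoter element called CHR. The promoters of the 3 with the largest rises are shown from RefSeq (GRCm38.p6), from 250 bases before to 50 after the start, with CHR letters (TTTGAA or TTTAAA, either strand) in capitals:
Mki67 (chr7:135716330-135716629, minus strand): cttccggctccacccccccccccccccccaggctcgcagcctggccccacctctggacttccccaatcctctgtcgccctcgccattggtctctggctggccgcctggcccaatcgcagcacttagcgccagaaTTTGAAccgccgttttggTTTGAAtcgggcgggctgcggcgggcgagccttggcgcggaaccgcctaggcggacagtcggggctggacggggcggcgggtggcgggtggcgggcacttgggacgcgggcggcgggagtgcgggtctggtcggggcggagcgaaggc
Smc2 (chr4:52438971-52439270, plus strand): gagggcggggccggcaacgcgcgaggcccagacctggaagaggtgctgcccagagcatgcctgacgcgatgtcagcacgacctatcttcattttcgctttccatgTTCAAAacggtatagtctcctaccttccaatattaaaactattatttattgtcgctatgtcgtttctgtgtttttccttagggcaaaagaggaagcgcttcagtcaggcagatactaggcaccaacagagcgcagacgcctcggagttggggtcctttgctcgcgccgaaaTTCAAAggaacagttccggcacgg
Hmmr (chr11:40733388-40733687, minus strand): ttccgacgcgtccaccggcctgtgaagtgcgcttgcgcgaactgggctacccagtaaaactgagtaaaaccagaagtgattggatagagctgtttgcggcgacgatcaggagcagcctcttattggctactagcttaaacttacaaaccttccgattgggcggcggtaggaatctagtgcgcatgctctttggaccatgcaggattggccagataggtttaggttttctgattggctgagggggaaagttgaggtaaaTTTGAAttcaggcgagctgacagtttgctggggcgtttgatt

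Mki67 and Smc2 each held 2 matches and Hmmr held 1. RefSeq windows were found for 59 of the 70 list genes. Those of the 9 that rose held a match in 8 of 10 windows (80%), those of genes that did not pass in 38 of 51 (74.5%), and all windows of that length in 27.6%. A match in these letters is a description and not a proven site.

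Mki67, the proliferation antigen of dividing cells, had 2.85 and 2.57 FPKM in G3DM and 6.24, 20.8 and 41.3 FPKM in G5DM. The difference was 2.34 (SE 0.57, limma adjusted p = 0.0345), and G1DM had 6.73 and 22.2 FPKM. Top2a, the DNA topoisomerase of mitosis, had 6.26 and 6.34 FPKM in G3DM and 12.6, 17.7 and 31.9 FPKM in G5DM (1.47, SE 0.34, limma adjusted p = 0.0304). Of 14 subunits of the DREAM and MMB complexes 1 rose, Lin54, which binds the CHR. It had 1.28 and 1.62 FPKM in G3DM and 2.94, 4.58 and 5.32 FPKM in G5DM (1.08, limma adjusted p = 0.0332). It did not pass without any 1 of G3DM replicates 1 and 2 and G5DM replicates 2 and 3. The transcription factors Foxm1 and Mybl2, which activate this programme, did not pass. Foxm1 had 14.5 and 11.8 FPKM in G3DM and 14, 9.15 and 14.6 FPKM in G5DM, and Mybl2 had 4.17 and 2.87 FPKM in G3DM and 5.55, 1.91 and 3.4 FPKM in G5DM. Without G5DM replicate 1, 24 G2/M genes passed, and without any 1 of the other 4 libraries none did. Of the 9 that rose, 7 lay in the lowest of 5 classes of GC content, and after length and GC trends were removed 1 of 70 passed. The differences then were 2.08 for Mki67 (limma adjusted p = 0.0525), 1.58 for Smc2 (0.0703) and 1.41 for Hmmr (0.0315). Genes of the G1/S programme did not share the rise. Of 51 tested, 2 rose (Pola1 and Ccne2) and none fell, near the 4.06% of all genes, with a median of -0.04.

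Single genes of chromosome structure and repair were also among the rises. Smc3, a core subunit of cohesin, had 1.75 and 1.78 FPKM in G3DM and 4.50, 17.8 and 24 FPKM in G5DM (2.31, SE 0.46, limma adjusted p = 0.0235). In G1DM it had 8.16 and 13.5 FPKM. Among 24 tested checkpoint and end-joining genes 2 rose, Atm and Prkdc. Atm, the kinase that senses double-strand breaks, had 0.424 and 0.776 FPKM in G3DM and 2.18, 7.23 and 7.49 FPKM in G5DM (1.93, SE 0.37, limma adjusted p = 0.0195). Among 29 genes of homologous recombination and the Fanconi pathway, Nbn and Rad50, partners in the complex that recruits Atm to breaks, rose by 1.42 and 1.32 on the log2 scale. The list medians were 0.18 and 0.16. With 2 calls in each list, and 4.06% of all genes higher, these are results of single genes. None of Atm, Prkdc, Nbn and Rad50 passed without any 1 of G3DM replicate 1 or 2 and G5DM replicate 2 or 3. With length and GC trends removed Atm, Nbn and Rad50 still passed (limma adjusted p = 0.00987, 0.0285 and 0.0214). No gene of the 17 tested for telomere capping and telomerase passed (median -0.03).

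The p53 gene and its main arrest target did not pass. Trp53 had 51.4 and 51.5 FPKM in G3DM and 57.1, 32.2 and 34.9 FPKM in G5DM (-0.35, SE 0.32, limma adjusted p = 0.518). Cdkn1a (p21, an inhibitor of cyclin-dependent kinases) had 168 and 180 FPKM in G3DM and 216, 131 and 86.2 FPKM in G5DM (-0.37, limma adjusted p = 0.659). Replicate 1 was the highest library for both genes. Mdm2, which degrades p53, was at 16.4 and 27.1 FPKM in G3DM and 23.6, 50.6 and 37.4 FPKM in G5DM (0.72, limma adjusted p = 0.311). Cdkn2a, the locus of p16 and p19Arf, had 51.6 and 76.6 FPKM in G3DM and 34, 25.6 and 15.3 FPKM in G5DM, groups that did not overlap, without passing (-1.37, limma adjusted p = 0.205).

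A minority of p53-activated genes rose, where 4.06% of all genes did. In the feedback and arrest list 4 of 23 rose (Trp53inp1, Polk, Ccng1 and Eda2r) and none fell, with a median of -0.10, equal to that of all genes. In the apoptosis and metabolism list 3 of 24 rose (Ckap2, Pmaip1 and Fas) and none fell, with a median of -0.11. With libraries scaled to the same FPKM total these medians became 0.08 and 0.05, and that of all genes 0.05. Ccng1, cyclin G1, had 80.9 and 123 FPKM in G3DM and 193, 326 and 251 FPKM in G5DM. Here replicate 1 was high too, and the groups did not overlap. The difference was 1.32 (SE 0.33, limma adjusted p = 0.0374). Fas, a death receptor, had 3.04 and 3.11 FPKM in G3DM and 6.40, 7.41 and 5.61 FPKM in G5DM (0.87, SE 0.20, limma adjusted p = 0.0295). Trp53inp1, a nuclear cofactor of p53, rose by 2.14 (SE 0.50, limma adjusted p = 0.0313). None of the 7 passed without either G3DM library or without G5DM replicate 2 or 3. All 4 of the first list and 2 of the 3 of the second lay in the lowest of 5 classes of GC content. In that class 16.2% of genes rose. After length and GC trends were removed 1 of the 7 passed, Polk, a polymerase that copies past DNA damage (limma adjusted p = 0.0231). The differences of Trp53inp1, Ccng1, Ckap2, Pmaip1 and Fas then were 1.37, 0.83, 0.82, 0.75 and 0.73.

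Calls among matrix genes were 2 higher and 2 lower of 44, beside 4.06% and 2% of all genes, so the share of rises was near that of all genes. Postn, the matrix protein periostin, had 12.9 and 11.6 FPKM in G3DM and 19.2, 72.7 and 115 FPKM in G5DM (2.08, SE 0.57, limma adjusted p = 0.0498). Vcan, a large proteoglycan, had 8.34 and 10.4 FPKM in G3DM and 18.5, 63.8 and 46.5 FPKM in G5DM (1.92, SE 0.38, limma adjusted p = 0.0235). These rises and the falls of Ltbp1 and Ltbp2 were the calls, and the median of the list was -0.30 against -0.10 for all genes. In 15 of the 44 all 3 G5DM libraries lay below both G3DM libraries, and in 7 they lay above. Over all genes 18.7% and 17.7% did so. Col8a1 was the single call among 21 collagens outside cartilage, with 24.3 and 22.3 FPKM in G3DM and 66.5, 94.3 and 73.5 FPKM in G5DM (1.69, SE 0.30, limma adjusted p = 0.0162). All 3 G5DM libraries were high. Postn and Vcan did not pass without any 1 of G3DM replicates 1 and 2 and G5DM replicates 2 and 3, and Col8a1 passed only without replicate 3 of these (limma adjusted p = 0.0361).

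Itga8, an integrin subunit of mesenchyme and smooth muscle, rose in all 3 G5DM libraries. It had 2.55 and 3.08 FPKM in G3DM and 9.29, 10 and 10.1 FPKM in G5DM (1.5, SE 0.20, limma adjusted p = 0.0024). It passed in 32 of 34 alternatives, failing without G3DM replicate 1 (limma adjusted p = 0.0744) and with the 5 libraries alone (0.113). Igf1, the growth factor, had 0.821 and 0.591 FPKM in G3DM and 2.23, 4.96 and 5.97 FPKM in G5DM (1.59, SE 0.27, limma adjusted p = 0.0114). Of the secretory factors linked to senescence, Tnfrsf11b (osteoprotegerin, 1.33) and Adamts5 (an aggrecan-cutting protease, 1.70) rose, and Il11 (-1.47) and Mmp23 (-0.84) fell, out of 48 tested in the cytokine and protease lists together. Over all genes 4.06% rose and 2% fell, so these few calls are no result about the lists. Igf1 did not pass without either G3DM library or without G5DM replicate 2, and the other 4 did not pass without replicate 3 either.

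Single genes of the chaperone lists and a few splicing and chromatin genes rose. Hsp90b1, a chaperone of the endoplasmic reticulum, had 47 and 49.7 FPKM in G3DM and 90.6, 215 and 214 FPKM in G5DM (1.72, SE 0.36, limma adjusted p = 0.0255). It and the lectin chaperone Canx (1.01) were the calls among 33 genes of the unfolded protein and integrated stress response, whose median was -0.12. Of 23 heat shock and chaperonin genes 1 rose, Dnaja1, with a median of -0.32 and 16 of 23 below 0. Both shares were near the 4.06% of all genes. Of 33 splicing factors 4 rose (Srsf10, Hnrnph2, Tra2b and Hnrnpr), none fell, and the median was 0.64. All 4 lay in the class of lowest GC content described below, as did 20 of the 33. With length and GC trends removed 1 passed, and the Tra2b difference became -0.01. Among 32 epigenetic regulators 5 rose, among them Atrx (1.96), Setd2 (1.72) and Suz12 (1.68), with a median of -0.03. C2H2 zinc finger genes, a large family of DNA-binding proteins, had 30 higher and 2 lower among 331 tested (9.06% and 0.604%), with a median of 0.21. No gene of the chaperone, splicing and epigenetic lists named here passed without any 1 of G3DM replicates 1 and 2 and G5DM replicates 2 and 3.

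Interferon-stimulated genes had a median of 0.64 over 27 tested, but 1 passed. It was B2m, the light chain of MHC class I, with 211 and 175 FPKM in G3DM and 427, 492 and 380 FPKM in G5DM (1.16, SE 0.29, limma adjusted p = 0.0368). The list's median was -0.04 in G5DM replicate 1 against 1.21 and 0.85 in replicates 2 and 3, and 17 of its genes passed without replicate 1 but none without any 1 of the other 4 libraries. Ribosomal proteins (78 genes, median -0.36) and nuclear-encoded respiratory chain genes (70 genes, median -0.25) had no call. Their medians were 0.38 and 0.39 in replicate 1, but -0.67 and -0.49 in replicate 2 and -0.81 and -0.70 in replicate 3. Without replicate 1, 15 and 10 of them passed as lower.

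**Figure D3:**
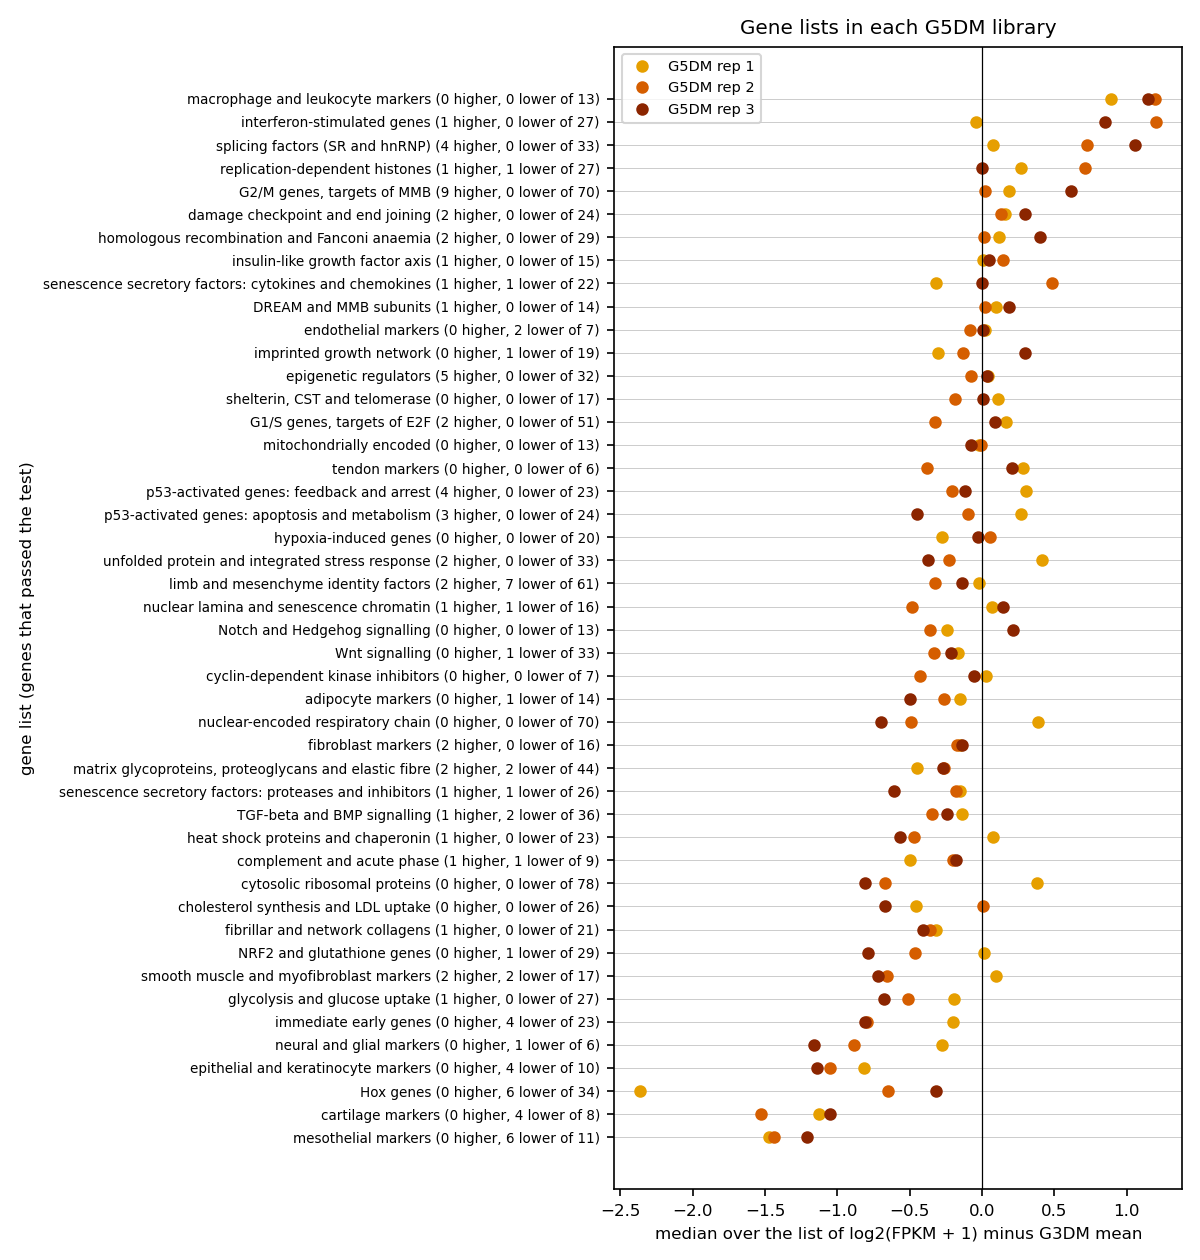
Median over each gene list of log2(FPKM + 1) minus the G3DM mean, 1 point per G5DM library, with the genes that passed in each direction and the genes tested beside the list name. Mesothelial and cartilage genes lie low in all 3 libraries, Hox genes lie lowest in replicate 1 at -2.36, and replicate 1 lies on the other side of 0 from replicates 2 and 3 for ribosomal proteins and the respiratory chain.

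Genes that rose shared sequence features. Their median length was 6949 bases and their median GC content 41.2%, against 3384 bases and 54.1% for those that fell and 3978 bases and 50% for those that did not pass. With the genes cut into 5 classes by GC content, 403 of 2495 genes rose and 8 fell in the lowest class (median difference 0.59). In the highest class 4 rose and 96 fell of 2494 (median -0.33). Of the 15 largest rises 13 lay in the lowest class, and of the 15 largest falls none did.

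This trend followed the library. Across the 12471 genes with a GC value, Spearman's correlation of the difference from the G3DM mean with GC content was -0.16 in G5DM replicate 1, -0.62 in replicate 2 and -0.63 in replicate 3, given as a description of genes that share libraries. Nuclear RNAs, chosen after their values were seen, were high in the same libraries. Malat1, which stays in the nucleus, had 33.7 and 60.2 FPKM in G3DM, 29.6 in G5DM replicate 1, and 314 and 322 in replicates 2 and 3. Meg3 had 16.3 and 18.7 FPKM in G3DM and 4.70, 33.7 and 52.1 FPKM in G5DM. The part of RNA quality or library composition in the rises was not tested. With smooth trends of length and GC removed from each library, 152 genes were higher (1.22%) and 139 lower (1.11%), of which 139 and 84 were among the original calls.

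**Figure D4:**
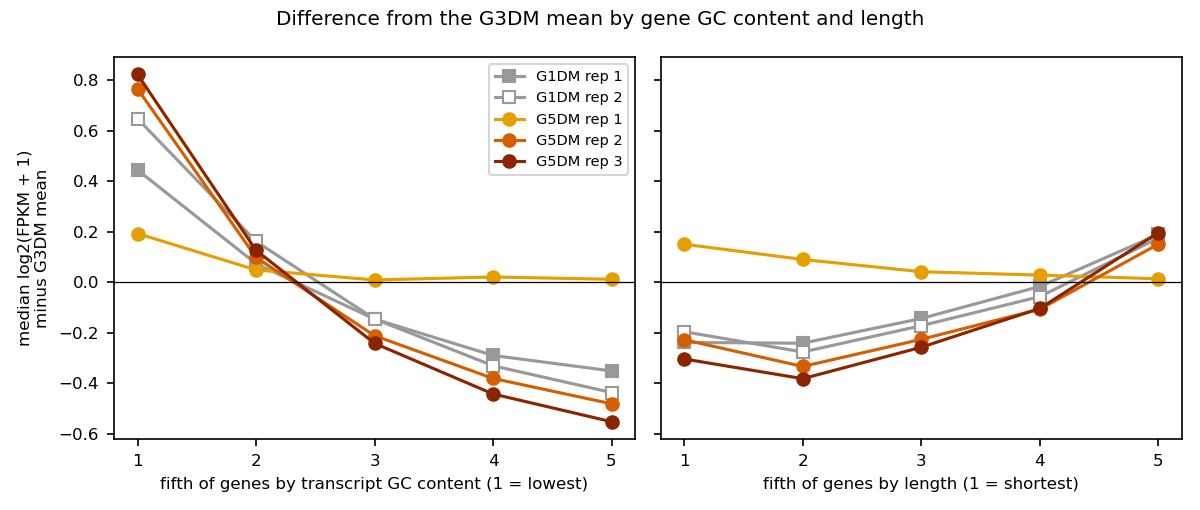
Median difference from the G3DM mean, as log2(FPKM + 1), in 5 classes of genes by transcript GC content (left) and by gene length (right), 1 line per library of G1DM (grey) and G5DM (orange to brown). G5DM replicates 2 and 3 and both G1DM libraries fall steeply from the lowest to the highest GC class, from 0.82 to -0.55 in G5DM replicate 3, while G5DM replicate 1 stays between 0.19 and 0.01.

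Annotation classes gave the following counts, beside 4.06% higher and 2% lower over all genes. On the X chromosome 44 of 433 genes rose (10.2%) and 4 fell (0.924%). Ddx3x, the X-linked partner of a Y-linked helicase, had 22.8 and 30.5 FPKM in G3DM and 50.6, 91.8 and 92.5 FPKM in G5DM (1.48, SE 0.38, limma adjusted p = 0.0392), and it did not pass without any 1 of the 4 libraries other than G5DM replicate 1. Among small RNA precursors, 7 of 95 microRNA genes (7.37%) and 5 of 107 snoRNA genes (4.67%) rose and none fell (medians 0.57 and 0.55). The snoRNA share was near that of all genes. In G5DM replicates 1, 2 and 3 the medians were -0.28, 0.93 and 0.96 for microRNA genes. For snoRNA genes they were -0.17, 0.89 and 0.98. Values of these small RNA genes come from a polyA library and are not levels of the mature RNAs. With a model term for Y-linked expression, 11 genes were higher and 40 lower over all classes.

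Macrophage genes were higher in G5DM without passing the test. Of 13 tested, 12, Cd14 being the exception, had all 3 G5DM libraries above both G3DM libraries, against 17.7% of all genes, and the median difference was 1.13. The list holds 29 genes, and a gene below 1 FPKM in both G3DM libraries could be tested only through G5DM. The count and the median are therefore partly set by the filter. C1qa, a complement component made by macrophages, had 0.301 and 0.349 FPKM in G3DM and 4.95, 3.02 and 3.10 FPKM in G5DM (limma adjusted p = 0.342). Lyz2, lysozyme, had 17.2 and 17.7 FPKM in G3DM and 33.3, 47.6 and 61.4 FPKM in G5DM (limma adjusted p = 0.524). The summed level of the list was 29.7 and 34.9 FPKM in G3DM and 72.3, 93.3 and 108 FPKM in G5DM. The defining gene Ptprc stayed at or under 0.108 FPKM in all 5 libraries. The part of these cells in the rises was not tested.

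**Figure D5:**
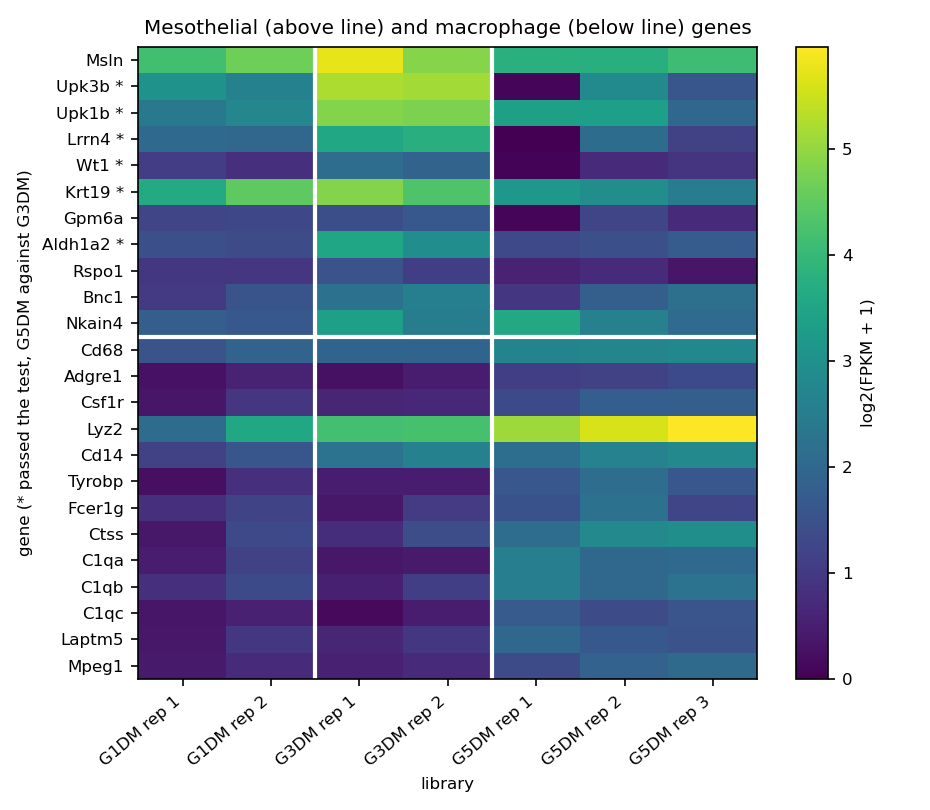
Levels of the 11 tested mesothelial genes (above the white line) and 13 tested macrophage genes (below it) in the 7 DM libraries, as log2(FPKM + 1) by colour. Most mesothelial genes are brightest in the 2 G3DM columns, and most macrophage genes are brightest in the 3 G5DM columns.

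In p53-mutant cells, G5TM against G3TM had 2 calls (0.016%), both predicted genes, Gm37416 (higher, 0.00802%) and Gm9826 (lower, 0.00802%). The G5 minus G3 difference itself differed between DM and TM for 32 genes (0.256%), 3 higher (0.024%) and 29 lower (0.232%) in DM. Hoxc10 was among them, with 6.37, 7.47 and 7.73 FPKM in G3TM and 7.28, 16.4 and 8.82 FPKM in G5TM. Its difference of differences was -3.77 (limma adjusted p = 0.00243). Hist1h4m, a histone H4 gene, was also among the 32. It was the 1 fall among 27 tested replication-dependent histones, which had 1 rise, 22 genes above 0 and a median of 0.43. Hist1h4m had 5.45 and 3.09 FPKM in G3DM, from 42 and 24 reads. In G5DM it had 0.276, 0.230 and 0.173 FPKM, from 2 reads each. It had 0.284, 0.676 and 0.491 FPKM in G3TM and 0.914, 0.822 and 0.740 FPKM in G5TM, and its difference of differences was -2.37 (limma adjusted p = 0.00243). The count was 6 to 25 when any 1 library of G3DM, G3TM, G5TM or G5DM replicates 2 and 3 was left out, and 1881 (1465 higher, 416 lower) without G5DM replicate 1, which turned the balance of directions. With only the libraries compared in each fit, 1 gene passed for G5DM against G3DM and 3 for G5TM against G3TM.

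The TM libraries of these generations stood apart from the DM libraries in more than p53. Rpl12, a ribosomal protein gene chosen after its values were seen, had 300 to 610 FPKM in the 6 G3TM and G5TM libraries and 3.84 to 6.77 FPKM in the other 9. What set them apart and the p53 genotype cannot be told apart in this test. Sex-linked genes differed as well. Y-linked genes summed to 4.52, 3.06 and 2.40 FPKM in G3TM and to 3.70, 0 and 0 FPKM in G5TM. In DM they were listed at 0 in G3DM and expressed in G5DM replicates 2 and 3. Sex thus changed in opposite directions, and it and the p53 genotype cannot be told apart in the difference of differences. For Cck, G3TM had 15.9, 13 and 18.2 FPKM and G5TM 15, 10.9 and 12.1 FPKM, close to the G5DM level, and the 2 G3DM libraries were the ones that stood high.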

How the data were processed

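The deposited table gives FPKM per gene and library as the authors calculated it, and no counts were analysed. Per the submitters' processing notes, the tools were HISAT2 2.0.5 with fastp and CASAVA 1.8, featureCounts 1.5.0-p3, and also DESeq2 1.20.0, with no role or order stated. The genome build is not given in the sources used here, and 98.3% of the 54495 listed coordinates equal those of the mouse GENCODE annotation on GRCm38. Libraries were polyA RNA prepared with a NEBNext Ultra kit, per the labels' protocols, so antisense and overlapping genes cannot be separated.

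FPKM steps gave whole reads for the 5 libraries, used here for depth only. Values were analysed as log2(FPKM + 1), so differences of low genes are understated. The 12476 genes with 1 FPKM or more in 2 or more of the 5 libraries were fitted with limma 3.58.1 (R 4.3.3), with an intensity trend and 6 group means over 15 libraries. The contrast was G5DM minus G3DM, two-sided, with Benjamini-Hochberg adjustment over all tested genes and a threshold of 0.05. A second contrast compared that difference between DM and TM. The fit was tested on simulated data.

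Named genes were a fixed set (Trp53, Cdkn1a, Mdm2, Ccng1, Cdkn2a, Foxm1, Mybl2 and Lmnb1), the 15 largest protein-coding rises and falls with a group mean of at least 5 FPKM, and up to 3 called members per list and direction. The comparison, its gene lists and the naming rule were chosen with earlier results of these data known. The alternatives were other pseudocounts, filters, scalings and sets of libraries, a replicate block, a term for Y-linked expression, and length trends. GC trends and G5DM replicate 1 alone were added after seeing the data. Figures were drawn with Python 3.11.15 and matplotlib 3.10.9.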

Additional observations from a re-analysis of the deposited data

Results flagged for a closer look

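The test of the difference itself, G5 minus G3 in DM against the same in TM, picked out 32 genes (limma, adjusted p under 0.05), all of which also passed in G5DM against G3DM. Of those named here, the difference was lower in DM by log2 values of -5.80 for Gm37416, -3.77 for Hoxc10, -3.31 for Hoxa10, -3.05 for Cck, -2.85 for Gzme, -2.67 for Hoxa11, -2.49 for Podxl, -2.37 for Hist1h4m, -2.25 for Cebpa, -2.13 for Arhgap36, -1.74 for Esam and -1.54 for Foxl1. It was higher by 1.48 for Itga8. Cebpa, a factor of adipocyte and liver differentiation, and Esam, an endothelial adhesion molecule, were both lower in G5DM than in G3DM. No group of 4 or more libraries existed in which a single outlying library could be tested.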

How the results depend on the processing

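Of 3820 values of single named genes under alternatives, 2509 kept their direction and their side of the threshold, 1269 kept the direction but no longer passed, 9 newly passed and 33 changed sign. The 756 calls for G5DM against G3DM became 1 with only the 5 libraries, 16 with the 7 DM libraries and 60 with the 9 libraries of G1DM, G1TM, G3DM and G5DM. They became 313 with a filter above 0, 417 with a filter of 5 FPKM, 85 with equal FPKM totals, 476 with upper quartile scaling and 3406 (2054 higher, 1352 lower) with array weights. They became 51 with a Y-linked term, 274 with the GC trend removed, 291 with length and GC trends removed and 110 (23 higher, 87 lower) with G5DM replicate 1 alone. Leaving out 1 library gave 13 (G3DM replicate 1) to 3203 (G5DM replicate 1). Other pseudocounts, quantile normalization, no intensity trend, a robust fit and the length trend kept this count within 1.5 times.

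With the replicate block the calls fell to 120 (41 higher, 79 lower) for G5DM against G3DM, 7 for the difference between DM and TM, and stayed at 2 for G5TM against G3TM. Same-numbered G3DM and G5DM libraries deviated with correlations of 0.282 and 0.285 over genes, but with 2 pairs and labels that tie no numbers they share only a number.

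The 32 genes that differed between DM and TM became 17 with pseudocount 0.1, 13 with the filter of 5 FPKM, 15 with only the groups compared, 59 with quantile normalization, 8 with equal totals, 13 with upper quartile scaling and 1871 (1344 higher, 527 lower) with array weights. They became 5 with the Y-linked term, 18 with the length trend removed, 15 with the GC trend removed and 13 with both removed. Leaving out 1 library gave 6 (G3DM replicate 2) to 1881 (G5DM replicate 1, 1465 of them higher). For G5TM against G3TM the 2 became 4 with a filter above 0, 1 with 5 FPKM, 1 with quantile normalization and 24 with array weights, and 1 to 5 when 1 library was left out.

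The sign changes were mostly of genes near 0. Foxm1 turned to 0.10 with equal totals, 0.021 with upper quartile scaling, 0.14 with array weights, 0.13 with the Y-linked term, 0.20 without the GC trend, 0.14 without both trends, 0.093 with G5DM replicate 1 alone and, with 1 library left out, -0.22 to 0.12 (0.066 without G3DM replicate 1, 0.12 without G5DM replicate 2). Mybl2 turned to 0.11, 0.046, 0.043, 0.29, 0.28, 0.28, 0.55, 0.18 and 0.26 in the same order of settings, and 0.015 without the length trend, with a lowest value of -0.32 without G5DM replicate 1. Lmnb1, which encodes lamin B1, turned to 0.024 with equal totals, 0.20 with array weights, 0.089 without the GC trend and 0.21 without both trends, and it ranged from -0.36 (without G5DM replicate 3) to 0.082 (without G5DM replicate 2) with 1 library left out. Without the GC trend Terf1 became -0.079 and mt-Nd5 -0.32, and without both trends mt-Nd5 became -0.076 and Tra2b -0.011. With G5DM replicate 1 alone Trp53 became 0.15, Cdkn1a 0.31, Hif1a -0.12, Sp7 0.54 and Tnmd -0.24. The cause of these changes was not tested.

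With 2 and 3 libraries per group, 2 of them of another sex pattern, the comparison is thin. Genes under 1 FPKM were near the limit of depth and were not tested.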
